A study of Mus musculus with 3 samples.

Results

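The 10 genes described here are the subunits of the transcription factor NF-kappaB and their best known inhibitors. They are the 5 DNA-binding subunits Rel, Rela, Relb, Nfkb1 and Nfkb2, the 3 cytoplasmic IkB inhibitors Nfkbia, Nfkbib and Nfkbie, the ubiquitin-editing inhibitor Tnfaip3 and the nuclear IkB protein Bcl3. They were chosen by symbol, with earlier results of these data known. All 10 were found among the 55536 genes of the deposited gene tables. Polyadenylated RNA was sequenced from activated regulatory T cells of a male adult mouse (9 weeks) whose strain is labelled Foxp3GFP-DTRCD4CreERT2R26tdTomato. The strain name lists a GFP and diphtheria toxin receptor allele at Foxp3, a tamoxifen-inducible Cre under Cd4 control and a tdTomato allele at R26. All 3 libraries carry the same alleles and are technical replicates 1, 2 and 3 of 1 biosample. There is 1 group, with no resting cells, other cell type or other genotype beside it, and the labels do not say how the cells were activated or whether toxin or tamoxifen was given. All SDs below are for libraries drawn from the same biosample, so they cover technical spread and no spread between animals. The p-values below set differences between these libraries against counting noise alone, so they allow for neither technical spread beyond it nor spread between animals.

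NF-kappaB is a family of dimeric transcription factors that IkB proteins hold in the cytoplasm of resting cells. In the canonical route, antigen receptor or cytokine signals activate the IKK complex, IkB proteins are phosphorylated and degraded, and dimers of Rela, Rel and the p50 product of Nfkb1 enter the nucleus. In the noncanonical route, the Nfkb2 precursor p100 is processed to p52, which pairs with Relb. Several inhibitors are themselves NF-kappaB target genes, and Rel is known for its role in the development of regulatory T cells.

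The libraries held between 18496690 and 21206219 estimated counts. All 5 regulatory T cell markers (Foxp3, Il2ra, Ctla4, Ikzf2 and Tnfrsf18) reached a level of 1 TPM or more (TPM, a deposited level per transcript length and library size), with a summed level of 1754 to 1959 TPM, and all 4 T cell markers were detected too. Markers of other cells were lower, with summed levels of 9.68 to 15.6 TPM for 5 B cell genes (3 of 5 at 1 TPM or more), 29.3 to 43.9 TPM for 5 myeloid genes (5 of 5), 2.52 to 2.73 TPM for 5 dendritic cell genes (1 of 5), 2.04 to 3.13 TPM for 3 NK cell genes (1 of 3) and 18.5 to 24.3 TPM for 2 CD8 T cell genes (1 of 2). The 5 erythroid genes summed to 909 to 1270 TPM. No gene of these lists was at 0 in every library. The RNA came from pooled cells, so fewer cells expressing a gene and less RNA per cell cannot be told apart.

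Promoters were searched for the NF-kappaB consensus because several members are known targets of the factor they form or restrain. The pattern was GGGRNNYYCC, with R a purine, Y a pyrimidine and N any base, and looser forms of the site were not searched. Of the 10 members, 8 are in the RefSeq promoter table (GRCm38.p6), which covers 250 bases before and 50 after each annotated start, and Relb and Nfkb1 are not. A match on either strand was found for 6 of the 8, namely Rel, Nfkb2, Nfkbia, Nfkbie, Tnfaip3 and Bcl3, and for neither Rela nor Nfkbib. Over all 32851 promoters of the table, 8.46% held a match, as did 9.55% of the 27025 genes. The promoters with matches are printed 5′ to 3′ on the strand of the gene, in capitals where they match the consensus. Rel (chr11:23770970-23771099, minus strand), Nfkbia (chr12:55492648-55492777, minus), Nfkbie (chr17:45555570-45555699, plus) and Tnfaip3 (chr10:19015411-19015540, minus) are shown for the 130 bases before the start. Nfkb2 (plus strand) is shown for its first match with short flanks (chr19:46304689-46304718) and for its second match alone (chr19:46304726-46304735), and Bcl3 (chr7:19822736-19822765, minus) for 30 bases around its start.
Rel: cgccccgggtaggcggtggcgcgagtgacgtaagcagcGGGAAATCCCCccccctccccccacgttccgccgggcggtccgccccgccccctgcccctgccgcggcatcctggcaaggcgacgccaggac
Nfkb2, first match: gatcgtcacGGGAATTCCCCccctcggggg
Nfkb2, second match: GGGGCTTTCC
Nfkbia: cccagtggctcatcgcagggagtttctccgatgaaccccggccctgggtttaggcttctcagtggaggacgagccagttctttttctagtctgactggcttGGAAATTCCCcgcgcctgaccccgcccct
Nfkbie: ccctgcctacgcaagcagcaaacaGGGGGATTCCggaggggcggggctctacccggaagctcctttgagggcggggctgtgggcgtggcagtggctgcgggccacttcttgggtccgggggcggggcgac
Tnfaip3: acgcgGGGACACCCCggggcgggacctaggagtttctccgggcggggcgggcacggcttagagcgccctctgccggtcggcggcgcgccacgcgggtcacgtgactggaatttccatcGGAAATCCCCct
Bcl3: agtcggcggcagGGGAAGTCCCgctgcccg

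Counted from the RefSeq start, the match of Rel lay at bases -92 to -82, that of Nfkbia at -29 to -20 and that of Nfkbie at -106 to -97. Nfkb2 has 3 annotated starts, each with at least 1 match; those of the first start lay at -39 to -29 and -11 to -2. This first start lies inside the first exon of the GENCODE transcript Nfkb2-206. Tnfaip3 has 2 annotated starts: the first had matches at -125 to -116 and -12 to -3, and the other had none. The match of Bcl3 lay just after its start, at bases 3 to 12. The stretches in Rel and Bcl3, the upstream stretch in Tnfaip3 and the first in Nfkb2 match on both strands. A match describes the letters in this window and is not a measured binding site.

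**Figure D1:**
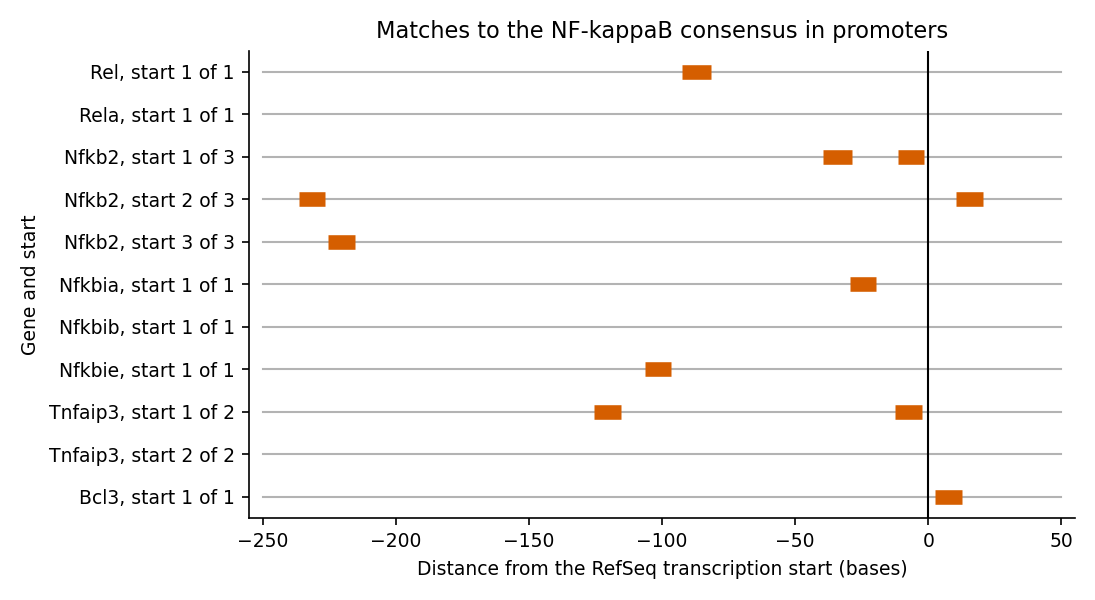
Positions of matches to the NF-kappaB consensus (orange blocks) in the 11 RefSeq promoters of 8 members; the x axis is the distance from the annotated start in bases and the vertical line is the start. Of the 11 promoters 8 hold a match, and those of Rela, Nfkbib and the other start of Tnfaip3 hold none.

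All 10 members were expressed. Each reached 1 TPM in every library, against 47.3% of 22028 protein-coding genes. Their median level was 57.7 TPM, beside a median of 26.1 TPM over the protein-coding genes that also reached 1 TPM in every library. TPM is a level per transcript length, so genes can be set side by side on it. Nfkbia stood highest at 672 ± 18.9 TPM and Bcl3 lowest at 14.8 ± 3.63 TPM (SD, n = 3). In the order Nfkbia, Rela, Nfkbib, Nfkbie, Nfkb2, Nfkb1, Tnfaip3, Rel, Relb and Bcl3, the ranges over the libraries overlapped between 3 pairs of neighbours: Nfkbie with Nfkb2, Nfkb1 with Tnfaip3, and Relb with Bcl3. The other 6 pairs of neighbours did not overlap.

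**Figure D2:**
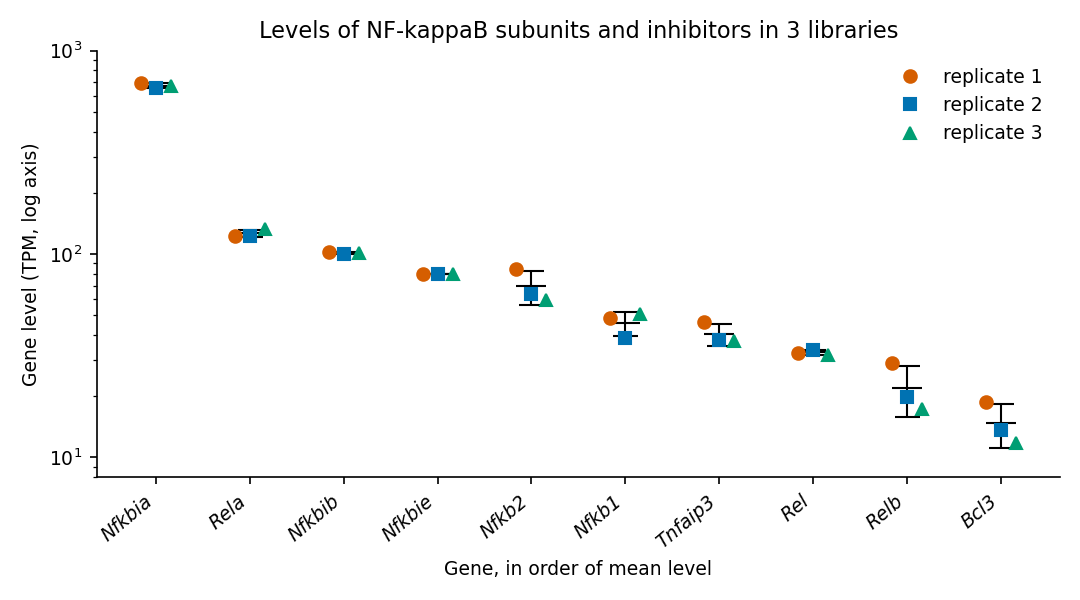
Level of each member in TPM (log axis) in replicates 1, 2 and 3, with the mean and SD over the 3 libraries as bars. Nfkbia lies between 653 and 691 TPM, above every other member, and the libraries of Relb and Bcl3 spread most.

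Among the canonical subunits, Rela led. Rela, which encodes the p65 subunit with a strong activation domain (chr19:5637483-5648130), had 123.2, 123.1 and 132.7 TPM in replicates 1, 2 and 3. Replicate 3 was the highest library for it and the other two were nearly equal. Rel, which encodes c-Rel (chr11:23736847-23770970), had 32.8, 33.9 and 31.9 TPM, so its libraries lay close together and below every library of Rela. Nfkb1, which encodes the p105 precursor of p50 (chr3:135584655-135691547), had 48.3, 38.9 and 50.7 TPM, with replicate 2 the low library. Rela made up 42.7 ± 3.53% of the summed TPM of the 5 subunits (SD, n = 3).

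The noncanonical pair was lower in sum and uneven between libraries. Nfkb2 (chr19:46304320-46312385) had 84.9, 63.8 and 59.8 TPM, and replicate 1 stood above the other libraries. Relb, the partner of p52 (chr7:19606217-19629438), had 29.1, 19.9 and 17.3 TPM, again with replicate 1 highest and replicate 3 lowest. The sum of Relb and Nfkb2 was therefore 114, 83.7 and 77.1 TPM, while that of Rel, Rela and Nfkb1 was 204, 196 and 215 TPM. The ratio of the noncanonical to the canonical sum was 0.558 in replicate 1, 0.427 in replicate 2 and 0.358 in replicate 3 (mean 0.448 ± 0.101 SD). The difference lay between technical replicates of the same cells.

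The IkB inhibitors were dominated by Nfkbia, and their libraries agreed closely. Nfkbia, which encodes IkB-alpha, the inhibitor that is degraded and resynthesised fastest (chr12:55489410-55492647), had 691, 653 and 673 TPM. Nfkbib, which encodes IkB-beta (chr7:28758251-28767512), had 102.4, 99.7 and 101.7 TPM. Nfkbie, which encodes IkB-epsilon (chr17:45555703-45563169), had 80.1, 80.1 and 80.0 TPM, the smallest SD in TPM of the 10 members. Nfkbia held 78.8 ± 0.342% of the summed TPM of the 3 inhibitors. The inhibitors summed to 874, 833 and 855 TPM and the subunits to 318, 280 and 292 TPM, a ratio of 2.74, 2.98 and 2.92 (2.88 ± 0.123 SD, n = 3). This is a ratio of RNA levels and not of proteins.

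The remaining regulators were among the lower members. Tnfaip3, which encodes A20, an enzyme that edits ubiquitin chains on signalling proteins upstream of IKK (chr10:19000910-19015657), had 46.3, 37.8 and 37.3 TPM. Bcl3, which encodes a nuclear IkB protein that binds p50 and p52 dimers (chr7:19808462-19822770), had 18.8, 13.7 and 11.8 TPM. For both, replicate 1 was the highest and replicate 3 the lowest library.

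Whether the libraries differed by more than counting noise was tested for each gene by a chi-square test of homogeneity on the rounded estimated counts against the library totals, with Benjamini-Hochberg adjustment over 14641 genes. The test passed at an adjusted p of 0.05 for 8 of 10 members, against 44.9% of all genes tested. Since power grows with counts, the nearer background is the 55.4% of the 9957 genes with a mean count of 100 or more, a class that holds all 10 members. The members' spread was like that of other genes: the median ratio of the highest to the lowest library in CPM (estimated counts scaled to the library total) was 1.13 over the members and 1.15 over those 9957 genes. A ratio of 1.5 or more was seen for 2 of 10 members, against 7.3%. Of the 10 members, 5 both differed and were highest in replicate 1, against 17.1% of all genes tested. Among only those that differed, replicate 1 was highest for 5 of 8 members and for 2507 of 6575 genes. Replicate 1 was highest and replicate 3 lowest for 5 of 10 members, against 18.6% of the genes with a mean count of 100 or more. Whether or not they passed, 6 members were highest in replicate 1 on library totals, where 34.2% of all genes tested were highest. This count was 4 with edgeR's TMM library sizes and 4 with classes of GC content and length, since Nfkbia and Nfkbib turned, and 7 on TPM.

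Relb, Nfkb2, Tnfaip3 and Bcl3 carried the larger differences; they were singled out after their values were seen. Relb had 39.6, 27.5 and 23.9 CPM in replicates 1, 2 and 3, from 823, 584 and 442 estimated counts. Its highest library was 1.66 times its lowest (95% interval 1.48 to 1.86, chi-square test, adjusted p = 1.14e-18). This interval and those below are for counting error only. They take the 2 libraries as fixed, though the pair was picked from the same counts. Of the genes with a mean count of 100 or more, 3.45% had a ratio at least as large. Bcl3 rested on fewer counts, 293, 202 and 137, or 14.1, 9.53 and 7.40 CPM. Its ratio was 1.90 (95% interval 1.55 to 2.33; adjusted p = 2.07e-09 by the chi-square test), a size reached by 1.56% of those genes. The libraries of both genes were spaced apart, with replicate 1 well above replicates 2 and 3.

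Nfkb2 had 170, 133 and 122 CPM, a ratio of 1.40 (95% interval 1.33 to 1.47) and the smallest adjusted p of the members, 2.01e-38 by the chi-square test; 12.9% of the genes with a mean count of 100 or more had a ratio at least as large. Tnfaip3 had 127, 105 and 99.4 CPM, a ratio of 1.28 (95% interval 1.20 to 1.35; chi-square test, adjusted p = 5.84e-16). In all 4 genes replicate 1 was the library that stood apart. Without replicate 1, Nfkb2 still differed between replicates 2 and 3 (adjusted p = 0.00992, chi-square test), and Relb, Tnfaip3 and Bcl3 no longer passed (adjusted p = 0.0724, 0.171 and 0.0688). Of the regulatory T cell markers, Ctla4 (326, 317 and 316 TPM) had replicate 1 highest and replicate 3 lowest, like these genes. Foxp3 (90.8, 96.4 and 83.0 TPM), Il2ra (369, 382 and 306) and Ikzf2 (374, 393 and 345) were highest in replicate 2 and lowest in replicate 3. On TPM Tnfrsf18 (799, 699.8 and 704) was highest in replicate 1 and lowest in replicate 2. Its estimated counts of 9712, 9289 and 7919, set against the library totals, put replicate 1 highest and replicate 3 lowest, as for the 4 genes. The marker sum was 1959, 1888 and 1754 TPM in replicates 1, 2 and 3, and the erythroid sum was lowest in replicate 1 (909, 1270 and 1146 TPM). Their part in the differences was not tested. When each gene was compared with genes of like GC content and length, an alternative chosen after seeing the data, the ratios were 1.62 for Relb, 1.37 for Nfkb2, 1.30 for Tnfaip3 and 1.87 for Bcl3, with the same highest and lowest libraries.

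**Figure D3:**
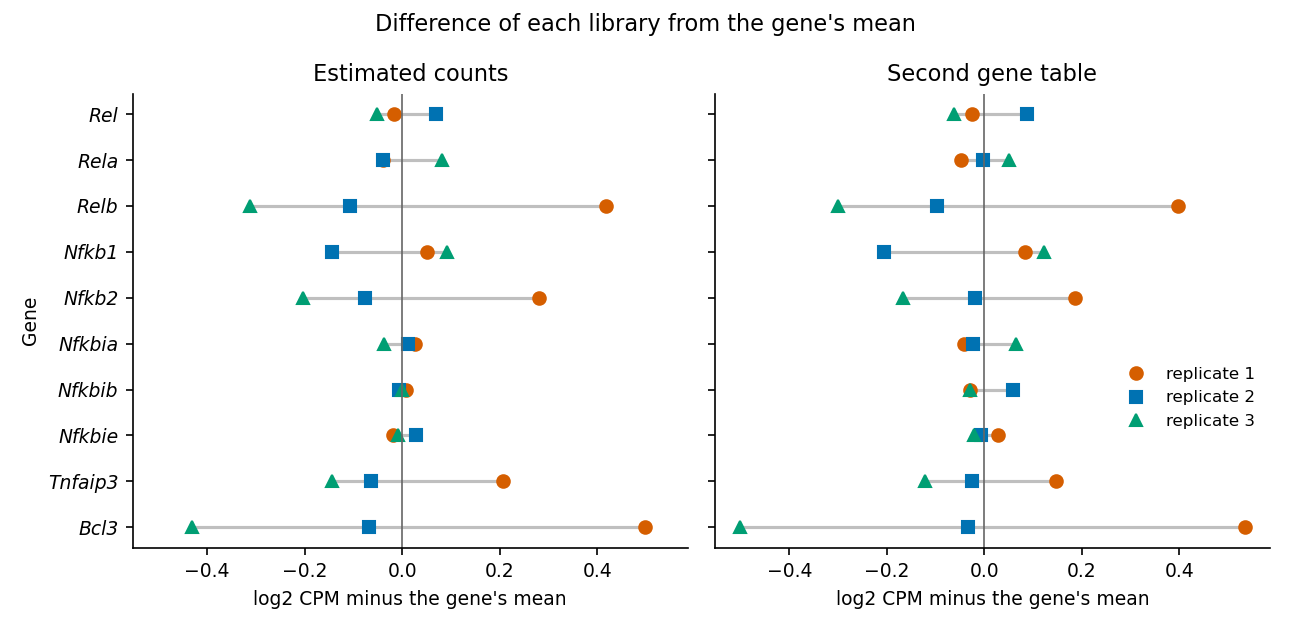
Difference of each library from the gene's mean, as log2 CPM, for the 10 members in the estimated counts (left) and in the second gene table of whole-number counts (right); symbols mark replicates 1, 2 and 3. Replicate 1 is highest and replicate 3 lowest for Relb, Nfkb2, Tnfaip3 and Bcl3 in both tables, and the 3 IkB inhibitors stay near 0.

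The other 4 members that passed had small differences. Nfkb1 had 71.4, 62.4 and 73.4 CPM, a ratio of 1.18 (chi-square test, adjusted p = 0.000178), and replicate 2 was its low library. Rela had 194.4, 194.4 and 211 CPM, a ratio of 1.09 (adjusted p = 0.000397, chi-square test), with replicate 3 alone higher. Rel had 155, 164 and 151 CPM (ratio 1.09, chi-square test, adjusted p = 0.0084), and it no longer passed when compared with genes of like GC content and length (ratio 1.03, adjusted p = 0.546). Nfkbia had 484, 479 and 463 CPM, a ratio of only 1.05 that passed through its 9589 mean counts (adjusted p = 0.0186 by the same test). Each of these calls rested on 1 library or 2: without replicate 2, Nfkb1 (adjusted p = 0.633) and Rel (0.551) did not pass, without replicate 3, Rela (0.999) and Nfkbia (0.662) did not, and without replicate 1, Nfkbia did not (0.0531). The order of the libraries for Nfkbia also turned with the scaling: replicate 1 was highest on library totals, and replicate 2 with TMM library sizes or when genes of like GC content and length set the scale. The call for Nfkbia was lost with edgeR's TMM library sizes (adjusted p = 0.0823).

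Nfkbib and Nfkbie did not pass the test on library totals. Nfkbib had 79.5, 78.8 and 79.1 CPM (ratio 1.01, 95% interval 0.944 to 1.08; chi-square test, adjusted p = 0.972). Nfkbie had 125, 129 and 126 CPM (ratio 1.03, 95% interval 0.980 to 1.09; adjusted p = 0.547, chi-square test). Against genes of like GC content and length Nfkbie did pass (ratio 1.08, chi-square test, adjusted p = 0.032).

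**Figure D4:**
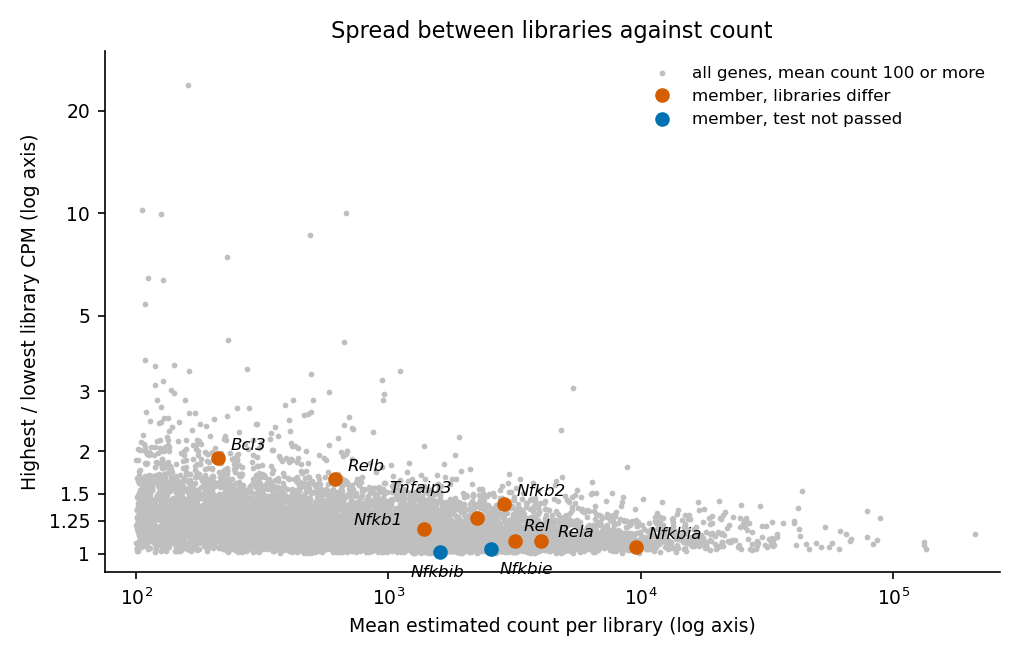
Ratio of the highest to the lowest library CPM (log axis) against the mean estimated count (log axis) for 9953 genes with a mean count of 100 or more (grey) and the 10 members (orange where the libraries differed by the chi-square test, blue where the test was not passed). Another 4 genes are off the axis or have a library at 0; Bcl3 and Relb lie above a ratio of 1.5, and the other members lie below it.

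A second deposited gene table, of whole-number counts on an older annotation, was counted from the same libraries. It held 29.3 to 31.1% as many counts as the estimated counts over all genes. For the members that share ran from 18.3% for Nfkbia in replicate 2 to 74.4% for Relb in replicate 3. There, 5 of 10 members differed between libraries, against 23.2% of 10885 genes tested. That share is over genes of all counts, and the share among genes of like count was not computed for this table. The 5 members were Relb (583, 409 and 329 counts), Nfkb1 (711, 575 and 668), Nfkb2 (2302, 1970 and 1647), Tnfaip3 (1123, 985 and 852) and Bcl3 (177, 118 and 79). Relb, Nfkb2, Tnfaip3 and Bcl3 kept replicate 1 as the highest and replicate 3 as the lowest library in CPM, with ratios of 1.62, 1.28, 1.20 and 2.05. Rel, Rela and Nfkbia did not pass there (chi-square test, adjusted p = 0.224, 0.291 and 0.169), and for Nfkbia replicate 3 became the highest and replicate 1 the lowest library. The table comes from the same libraries, so it bears on the counting and not on the cells.

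The transcript tables showed which annotated forms the reads were assigned to. Rel has 1 annotated transcript, and Rela, Relb, Nfkbib and Nfkbie each had a leading protein-coding form: Rela-201 with 89.0 ± 2.44% of the gene's TPM, Relb-202 with 80.8 ± 7.22%, Nfkbib-202 with 97.2 ± 0.842% and Nfkbie-201 with 80.8 ± 2.61% (SD, n = 3). A second form of Nfkbie above 10% was Nfkbie-202, annotated as a retained intron, with 13.6 ± 1.29%. Relb-202 and Relb-201 (7.25 ± 7.06%) differ by a 9-base exon, exon 3 of Relb-202 at chr7:19622926-19622934 on the minus strand. It is printed in capitals between the 17 bases on each side in the spliced transcript (GENCODE M21, GRCm38), as the feature that separates the forms.
Relb-202: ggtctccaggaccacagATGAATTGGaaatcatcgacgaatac

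Nfkbia was divided between its 2 annotated transcripts. Nfkbia-201, which encodes IkB-alpha, had 353, 351 and 327 TPM, and Nfkbia-202, annotated as a retained intron, had 338, 303 and 346 TPM. The share of Nfkbia-202 was 48.9 ± 2.57% of TPM and 29.0 ± 2.11% of estimated counts (SD, n = 3), since it is short, 701 bases against 1578. Of its 701 bases 669 lie in exons of Nfkbia-201, and the other 32 are intron sequence before an exon shared by both. Those 32 bases (lower case) and the first 20 of the shared exon (capitals) are the stretch that tells the transcripts apart at its 5′ end (chr12:55491759-55491810, minus strand).
Nfkbia-202: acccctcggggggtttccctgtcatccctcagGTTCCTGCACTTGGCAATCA

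Because so little of Nfkbia-202 is its own, the split rests on how reads spread over shared exons. It also bears on the gene's level: with the effective length of Nfkbia-201 alone, an alternative chosen after seeing the data, Nfkbia came to 484 ± 12.1 on the TPM scale in place of 672 and stayed the highest member. Over 9640 protein-coding genes with several transcripts and at least 1 TPM in every library, the median share of transcripts not annotated as protein-coding was 15.4%, and 16.9% of those genes had a share at or above that of Nfkbia.

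Little of the RNA of Nfkb1 was assigned to transcripts with its full coding sequence. Nfkb1-201, which encodes the whole p105 protein over 25 exons, had 0.43, 1.41 and 1.29 TPM. Nfkb1-206, with a coding sequence of the same 2913 bases over 23 exons, had 0.63, 0 and 0.62 TPM. The largest share went instead to Nfkb1-207, annotated for nonsense-mediated decay, with 19.5, 11.2 and 24.2 TPM (38.9 ± 9.56% of the gene). Nfkb1-203, an annotated protein-coding fragment of 12 exons, followed with 16.5, 13.0 and 14.2 TPM (31.8 ± 3.43%). Both lie wholly within exons of Nfkb1-201, toward its 3′ end, so no base of theirs is their own. The retained-intron forms Nfkb1-204, which reaches the 5′ end of the gene, and Nfkb1-208 took 9.05 ± 2.39% and 7.10 ± 1.78% of TPM. Their shares of estimated counts were 12.8% and 12.3%. Replicate 2, the low library for the gene, was also the low library for Nfkb1-207. In all, 65.0 ± 2.94% of the gene's TPM went to transcripts not annotated as protein-coding, a share that 9.44% of the 9640 genes reached. With the effective length of Nfkb1-201 the gene's level was 26.5 ± 2.60 on the TPM scale in place of 45.9, and it moved from place 6 to place 8 in the order, below Tnfaip3 and Rel. The place of Nfkb1 among the members thus depends on which transcript sets its length.

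Nfkb2 was led by Nfkb2-204 with 61.4 ± 13.0%, beside Nfkb2-206 with 16.8 ± 0.891% and Nfkb2-201 with 10.3 ± 12.4%. Nfkb2-201 had 792, 0.01 and 140 estimated counts with deposited posterior SDs of 313, 139 and 136, and Nfkb2-204 had 1625, 1973 and 1408 with SDs of 275, 159 and 152. The forms share 2923 of the 2979 bases of Nfkb2-201, so few bases tell them apart, and the estimates for Nfkb2-201 differed between libraries far more than those of the whole gene.

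Tnfaip3 was divided between Tnfaip3-202 (49.9 ± 5.47%) and Tnfaip3-201 (40.1 ± 8.09%), which encode the same length of protein-coding sequence, 2325 bases, and have separate first exons. Tnfaip3-201 had 22.9, 13.1 and 13.5 TPM and Tnfaip3-202 had 20.3, 20.6 and 19.2 TPM. The higher level of replicate 1 thus fell to Tnfaip3-201, whose posterior SDs were 249, 142 and 112 on 1320, 794 and 697 estimated counts. The promoter matches printed for Tnfaip3 lie just before the first exon of Tnfaip3-201. Whether these matches bear on the difference between libraries was not tested.

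Bcl3 was divided between Bcl3-203 (52.4 ± 4.06%), an annotated coding fragment of 3 exons wholly inside the exons of Bcl3-201, and the full-length Bcl3-201 (36.3 ± 6.52%). Bcl3-201 had 8.19, 4.72 and 3.64 TPM and Bcl3-203 had 9.38, 7.84 and 5.92 TPM. Both forms had replicate 1 highest and replicate 3 lowest. With the effective length of Bcl3-201 the gene's level was 8.95 ± 3.02 on the TPM scale in place of 14.8. Its range, 6.45 to 12.3, then no longer overlapped that of Relb, 17.3 to 28.8, and Bcl3 stayed the lowest member.

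**Figure D5:**
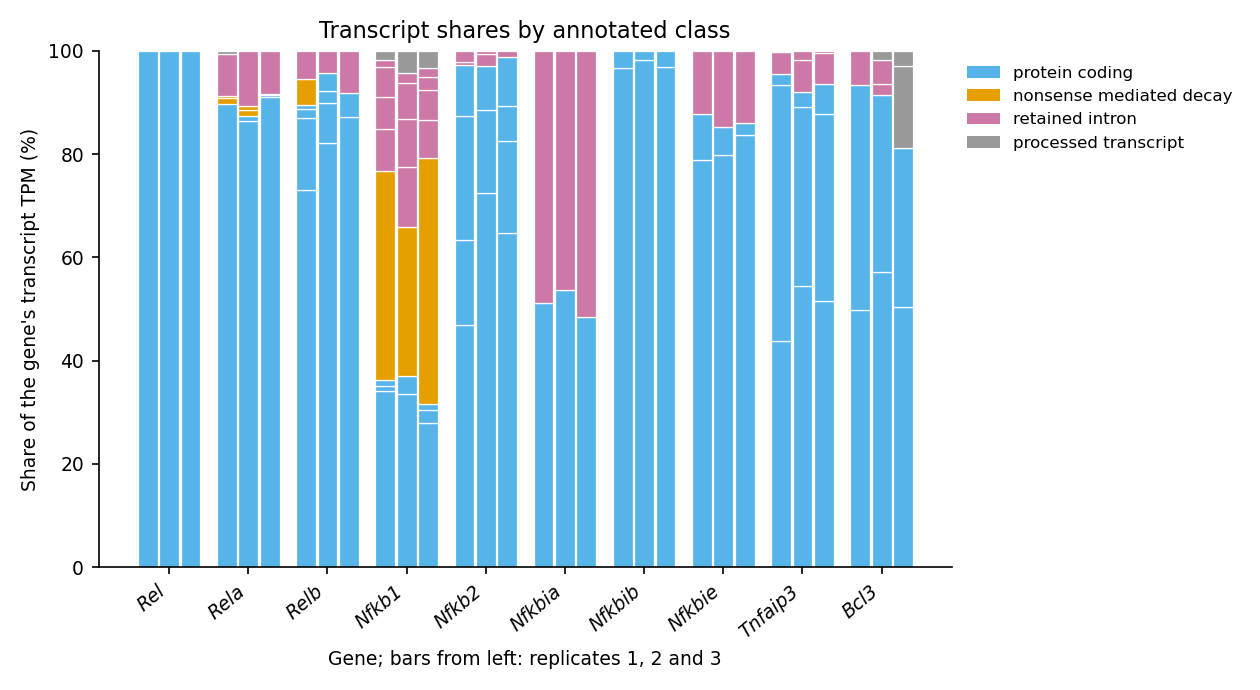
Share of each member's transcript TPM (%) by annotated class of transcript; the 3 bars of a gene are replicates 1, 2 and 3, white lines part single transcripts. Retained-intron forms take 48.9% of Nfkbia on average, and transcripts not annotated as protein-coding take 65.0% of Nfkb1.

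Some members share their place in the genome with other genes, and the sources used here do not state the strand setting of the counting. The noncoding gene AC114539.1, opposite Nfkb2, had 668, 722 and 672 estimated counts and did not follow the library order of Nfkb2. Sirt2, opposite Nfkbib, had 2017, 1932 and 1897 counts, and Gm43430, on the strand of Nfkb1, had 70, 116 and 92. If strand was not used, reads in the overlaps of opposite strands cannot be told apart, and strand does not part Nfkb1 from Gm43430.

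Nfkb2, the member with the smallest adjusted p, was used to look for genes of like pattern. Over the 3 libraries and 9953 genes, the nearest by distance between centred log2 CPM were Ap2a2 (60.2, 46.8 and 43.1 CPM), Hmgn1 (74.3, 58.2 and 52.9) and Clic4 (32.3, 25.5 and 23.2). Their distances were 0.00598, 0.0081 and 0.00996. The nearest member, Tnfaip3, was at 0.0943. It is the nearest of far fewer genes, so its distance is not to be set against those picked from 9953. The likeness rests on 3 libraries of the same cells and is a description.

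The rest of the pathway was read from the same fit in 7 lists of 70 genes, of which 68 could be tested and 42 differed between libraries (18 highest in replicate 1, 12 in replicate 2 and 12 in replicate 3). This is 61.8% of them, beside 44.9% of all genes tested and 55.4% where the mean count was at least 100. The counts of single lists below are to be read against the same shares. Of 5 other genes named for NF-kappaB or its inhibitors 4 differed. Nfkbiz, which encodes the nuclear protein IkB-zeta, had 33.6, 26.7 and 22.4 TPM, with replicate 1 highest and replicate 3 lowest like Relb and Bcl3 (75.2, 61.0 and 50.2 CPM, chi-square test, adjusted p = 8.10e-21). Nfkbid, which encodes another nuclear IkB protein, stood at 84.5 ± 2.52 TPM, Nkap at 19.2 ± 1.11 TPM and Nfkbil1 at 16.9 ± 3.36 TPM. Nkrf, a repressor of NF-kappaB target genes, had 1.51 ± 0.241 TPM and did not pass (adjusted p = 0.353).

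Of 10 IKK kinases and their activators 8 differed, 3 of them highest in replicate 1 and 4 in replicate 3. Ikbkb, the catalytic IKK-beta subunit, was the highest at 209 ± 8.88 TPM, followed by the IKK-related kinase Ikbke at 166 ± 12.2 TPM, and the TAK1-binding protein gene Tab3 was the lowest at 2.83 ± 0.396 TPM. Chuk, the IKK-alpha subunit that acts in the noncanonical route, had 39.8, 27.7 and 25.8 TPM and was named after its values were seen. Its ratio of 1.51 (chi-square test, adjusted p = 8.79e-23) had replicate 1 highest, whereas Ikbkb had 201, 208 and 219 TPM with replicate 1 lowest.

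Of 7 genes on the antigen receptor route 6 differed, 4 of them highest in replicate 1. The kinase gene Prkcq (151 ± 14.5 TPM) and the adaptor Bcl10 (88.5 ± 2.84 TPM) were highest, and Carmil2, which links CD28 to this route, was lowest at 16.7 ± 3.99 TPM. Of 8 TNF receptor adaptors 6 differed, 2 highest in each library. Traf1 (470 ± 14.5 TPM) and Traf5 (131 ± 7.56 TPM) led them, and the kinase gene Ripk1 was lowest at 18.0 ± 4.19 TPM. Carmil2 and Ripk1 had replicate 1 highest and replicate 3 lowest, at 1.54 and 1.55 times the lowest library in CPM.

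Of 14 ubiquitin-editing partners and brakes 6 differed. Rbck1, a subunit of the linear ubiquitin ligase, had 290.4 ± 11.4 TPM, the A20-binding protein gene Tax1bp1 had 234 ± 1.37 TPM, and Rnf11, another A20 partner, was lowest at 1.92 ± 0.215 TPM. Of the 5 genes of the ubiquitin ligase that marks IkB for degradation 2 differed, both highest in replicate 1: the F-box gene Fbxw11 (39.9 ± 7.05 TPM) and the scaffold Cul1 (70.7 ± 6.63 TPM). The other F-box gene Btrc had 29.0 ± 1.03 TPM, and the shared subunits Skp1a and Rbx1 had 291 ± 2.22 and 316 ± 17.5 TPM; these 3 did not pass.

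Of 21 known NF-kappaB target genes 18 reached 1 TPM in every library, 19 could be tested and 10 differed, 3 highest in replicate 1, 3 in replicate 2 and 4 in replicate 3. The share that differed, 52.6%, lies between the 44.9% of all genes tested and the 55.4% of genes with a mean count of 100 or more. Junb, which encodes an AP-1 subunit, was highest at 448 ± 99.6 TPM, and Irf1 followed at 394 ± 12.2 TPM. Il6 was lowest at 0.37 ± 0.121 TPM, from 10, 3 and 7 estimated counts, and was too low to test. The targets did not all share the library order of Relb, Nfkb2, Tnfaip3 and Bcl3: Junb was highest in replicate 1, at 563, 393 and 388 TPM, and the chemokine gene Ccl5, named after its values were seen, was highest in replicate 3, at 184, 157 and 334 TPM. In the second gene table Ccl5 passed (chi-square test, adjusted p = 2.00e-06) and Junb did not (adjusted p = 0.565). Over the 7 lists, 16 of the 65 genes tested there differed, or 24.6%, close to the 23.2% of all genes.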

How the data were processed

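Polyadenylated RNA of 1 biosample was measured in 3 libraries, grouped by the labels as technical replicates of 1 group. The authors deposited, per library, gene and transcript tables (mm10, GENCODE M21, per the files deposited with each library) with estimated counts, TPM and FPKM, and posterior SDs of the counts. They also deposited a gene table of whole-number counts (GENCODE M4) whose counter is not stated. The aligner, the quantifier version and whether strand was used are not stated in the labels or files. IDs were named from GENCODE M21, and all 10 members matched.

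Estimated counts were rounded and compared with library totals by a chi-square test (2 degrees of freedom) in the 14641 genes whose counts over the libraries summed to at least 30. The p-values were adjusted by Benjamini-Hochberg. The test was checked on counts simulated with Poisson counting noise around each gene's mean. Such counts follow the test's own assumption, so the check cannot show how the test behaves on estimated counts. Rows naming no gene, 0.189 to 0.271% of the counts, were left out. Libraries held 20783676, 21206219 and 18496690 estimated counts, and the floor of 3 counts was 0.141 to 0.162 CPM. CPM were computed from estimated counts, and transcript shares as the percent of a gene's deposited transcript TPM. Fixed-length levels divided a gene's estimated counts by the effective length of its transcript with the longest coding sequence, keeping the TPM scale. Intervals cover counting error only. They do not allow for the highest and lowest library having been picked from the same counts, which makes the ratios lean upward.

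The text names all 10 members, their transcripts with a mean share of 10% or more, of each pathway list the 2 highest and the lowest gene by mean TPM (every gene of lists of up to 5), and the 3 genes nearest to Nfkb2; other names are marked. Members and lists were chosen with earlier results of these data known. Alternatives were FPKM, summed transcript TPM, edgeR 4.0.16 TMM and DESeq2 1.42.0 size factors (R 4.3.3), other count filters, the deviance statistic, the second gene table and leaving out each replicate. Fixed-length levels and a scale from 25 classes of GC content and length (5 classes of each) were added after seeing the data. Python 3.11.15, scipy 1.17.1 and pandas 2.3.3 were used.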

Additional observations from a re-analysis of the deposited data

How the results depend on the processing

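The number of members that differed between libraries was 7 or 8 under TMM, DESeq2 size factors, other count filters, the deviance statistic and classes of GC content and length, against 8 as reported; with the classes Rel left the count (adjusted p = 0.546) and Nfkbie entered it (0.032, chi-square test). It was 5 in the second gene table and 4 to 6 when a replicate was left out. Of the pathway genes, 16 in place of 42 differed in the second gene table. Members highest in replicate 1 numbered 6 on library totals, 4 with TMM, 4 with the classes and 7 on TPM, and those highest in replicate 2 numbered 2 on library totals, 1 on TPM and 4 with the classes of GC content and length. The median member level was 57.7 TPM and 37.0 as FPKM, a change of unit that scaled all 10 levels. The ratio of inhibitors to subunits was 2.88 on TPM, 2.50 with fixed lengths and 1.14 on estimated counts, which are not per length. With fixed lengths 6 of 10 member levels moved by more than their SD. TMM and DESeq2 shifted the scale by at most 0.0129 and 0.00648 (log2). Relb, Nfkb2, Tnfaip3 and Bcl3 had replicate 1 highest and replicate 3 lowest on library totals, TMM, DESeq2, TPM, the classes and the second gene table. The highest and lowest libraries swapped for Nfkbia and Nfkbib in the second gene table and for Nfkbib with the classes, and Nfkbie had replicate 1 highest on TPM and in the second gene table. No paired analysis was possible because all 3 libraries form 1 group. Counts limit Bcl3 most, with 137 estimated counts in replicate 3.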
